A study of Drosophila melanogaster with 3 samples.

Results

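The peaks described here are those of the nuclear receptor Eagle whose summits lay just inside a transcription unit, 1 to 500 bp downstream of the transcription start site (TSS) of a single protein-coding promoter. They were taken from the conservative thresholded list of the series by position alone: the nearest coding TSS had to be within 500 bp with the summit on its downstream side, and summits within 500 bp of a head-to-head pair of coding TSSs (opposite strands, at most 1000 bp apart) were left out. The rule kept 699 of 9369 peaks on the main chromosome arms. Of the others, 1578 lay 1 to 500 bp upstream of single coding promoters and are the peaks compared most often below, 1018 were at head-to-head pairs, 6070 were farther than 500 bp from any coding TSS and 4 had the summit on the TSS base itself. The study mapped Eagle by chromatin immunoprecipitation and sequencing (ChIP-seq) in Drosophila melanogaster, from whole animals at the prepupal stage (age given as 2 days) with a transgene that makes Eagle fused to eGFP, precipitated with an antibody to GFP. All 3 biological replicates belong to this 1 group, so there was no other genotype, treatment or time to compare, and the tissue of origin of a peak cannot be told from a whole animal. The transgene adds tagged Eagle to the animal, and the labels do not say whether the fly's own eg gene was intact.

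Eagle belongs to the knirps family of orphan nuclear receptors, which carry a zinc finger DNA-binding domain and no known ligand, and is best known for its part in the identity of serotonergic and other neurons. At a fly promoter, RNA polymerase II assembles around the TSS, where a short initiator sequence is often found, and in many genes it pauses shortly downstream, in the first stretch of the 5′ untranslated region (UTR). The sequence downstream of a TSS therefore holds core promoter elements, the 5′ UTR, and often the start of the first intron, which in flies commonly contains enhancers.

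Summits of the strongest members lay in introns or in 5′ UTR exons, and sequences of some are shown on the strand of the gene, as read from the RefSeq genome of the dm6 build. The first set holds the summit base and 50 bases on either side of it for members inside an intron, chosen because intronic summits mostly lay farther from the TSS than the others. Capitals mark each match, on either strand, to any of the 15 motifs searched (named with the motif results). Cat lies at chr3L:18822871-18822971, hb at chr3R:8694253-8694353, Rsod at chr3R:30170775-30170875, hng3 at chr3L:738859-738959 and Cftr at chr3R:24543193-24543293.
Cat: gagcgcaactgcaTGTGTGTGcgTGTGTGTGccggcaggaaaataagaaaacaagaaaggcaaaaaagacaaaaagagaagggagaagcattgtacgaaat
hb: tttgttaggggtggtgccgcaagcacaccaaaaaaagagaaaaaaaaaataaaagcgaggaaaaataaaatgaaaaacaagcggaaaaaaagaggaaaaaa
Rsod: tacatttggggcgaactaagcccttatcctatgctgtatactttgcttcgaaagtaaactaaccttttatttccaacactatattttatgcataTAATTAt
hng3: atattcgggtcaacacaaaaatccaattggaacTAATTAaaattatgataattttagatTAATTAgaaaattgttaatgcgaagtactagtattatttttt
Cftr: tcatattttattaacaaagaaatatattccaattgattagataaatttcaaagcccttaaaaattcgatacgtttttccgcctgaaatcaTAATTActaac
None of the 15 motifs was found in the hb window. Cat held the repeat CACACACA, and Rsod, hng3 and Cftr held the homeodomain core TAATTA. The windows of the other intronic members among the 20 strongest, Ptp4E, CG6287 and rudhira, are not shown and held none of the 15 motifs.

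The second set shows 30 bases at the TSS, from 15 bases before it to 15 bases counted from the TSS base. It includes members with an intronic or a 5′ UTR summit that have an initiator, TCAGT, whose A lies within 5 bp of the TSS (capitals), and SCOT as a member without one. The windows are hdly at chr3R:20914281-20914310, hb at chr3R:8694586-8694615, CG6287 at chr2L:11155707-11155736 and SCOT at chr3L:1963128-1963157.
hdly: atgccaagaggaatatcaTCAGTgcaaagt
hb: cctgttgcaattgtTCAGTCAGTcacgagt
CG6287: agaaacccactctcgaagTCAGTtcaattt
SCOT: gttttacgttactatgtagattcaaatttt
The hb promoter has 2 overlapping copies of the initiator. Most of the 20 strongest members had no initiator at this position. Without it and not shown are the TSS windows of Cat, Ptp4E, CG9399, CG32772, CG18622, ph-p, rudhira, cmb, Unr, Rsod, hng3, Cftr and CG32369. Windows of GstE13, jing and psq were not read for this set. The number of members with this element is given with the motifs.

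Peak strength in the deposited lists is the authors' signal value, whose scale differs from list to list, so it is compared within a list only. The member with the highest signal lay in Cat (FBgn0000261), the gene for catalase, which breaks down hydrogen peroxide. Its peak spanned chr3L:18822762-18823088, with the summit in an intron 317 bp downstream of the TSS. Its signal was 2122 in the conservative list, rank 26 of all peaks, and 542, 679 and 896 in replicates 1, 2 and 3. The replicates placed the summit 306, 317 and 309 bp downstream. The member of GstE13, a glutathione S-transferase gene of detoxification, was almost as strong at 2110, with 793, 659 and 670 in the replicates, but its summit was in the 5′ UTR 76 bp from the TSS. The 2 strongest members thus lay in different parts of their genes, an intron and the 5′ UTR. Next came hdly with a signal of 1718, a summit 55 bp downstream, and 366, 595 and 776 in the replicates.

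The gap gene hb, a zinc finger regulator of the embryo and of neuroblast timing, had a member at chr3R:8694153-8694446, 297 bp downstream in an intron. Its replicate signals were 253, 475 and 518 and its signal in the conservative list 1236. Ptp4E, a receptor tyrosine phosphatase gene, had an intronic summit at 403 bp with 430, 439 and 350 in the replicates. Both positions were steady between replicates, at 295, 303 and 300 bp for hb and 398, 402 and 403 bp for Ptp4E. A second, weaker hb member lay in the 5′ UTR 281 bp downstream of another TSS, with 39.8, 66.7 and 79.3. The chromatin genes ph-p (polyhomeotic proximal, a subunit of Polycomb repressive complex 1) and psq (pipsqueak, a binder of GAGA repeats) had members far from the promoter but within the 5′ UTR, with summits at 465 and 407 bp. The signals of ph-p were 350, 282 and 233 and those of psq 175, 276 and 365. A second, weaker psq member had an intronic summit 136 bp downstream of another TSS, with 127, 165 and 186. For ph-p, all 3 replicates put the summit farther downstream, at 491 to 500 bp, and its near copy ph-d means that reads could be shared between the genes. The metabolic gene SCOT, for the transferase that activates ketone bodies, had a summit at 39 bp with 335, 227 and 386. Unr, for an RNA-binding protein of dosage compensation, had a summit at 332 bp with 195, 273 and 323.

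Of the 20 strongest members found in all 3 replicates, 12 had the summit in a 5′ UTR exon and 8 in an intron. The rest of these 20 lay at CG9399, CG32772, CG18622, jing (a zinc finger regulator), rudhira, cmb, Rsod (related to superoxide dismutase), hng3, Cftr (the fly relative of the human chloride channel gene), CG6287 and CG32369. Conservative signals of the 20 ran from 666 to 2122 and distances from 34 to 465 bp, with a median of 232 bp. The peaks of 8 of them reached across the TSS. No replicate summit of these members lay more than 37 bp from the series summit. The largest of the 3 replicate values was in replicate 3 for 12 members, in replicate 1 for 5 and in replicate 2 for 3. Each list has its own scale, so this does not rank the replicates. It shows only that their order differed between members.

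**Figure D1:**
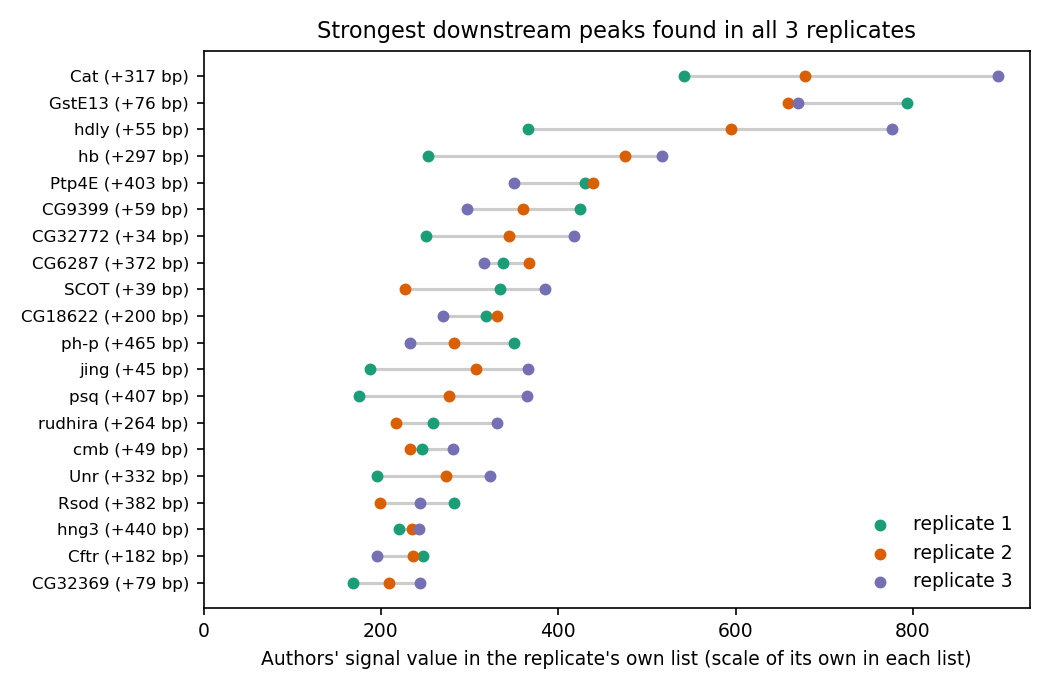
Authors' signal value (horizontal axis, scaled differently in each list) of the 20 strongest downstream peaks found in all 3 replicates, 1 row per gene with the summit distance from the TSS; points are the replicates and the grey line joins the lowest to the highest. The replicate with the largest value differs from gene to gene: it is replicate 3 for Cat (896) and hdly (776) and replicate 1 for GstE13 (793). With unlike scales this does not rank the replicates.

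Downstream summits were fewer than upstream ones. They made up 30.7% of the 2 classes together (95% Wilson interval 28.8 to 32.6, counting error only). In the replicates' own thresholded lists there were 305, 397 and 617 downstream summits and 1063, 1102 and 1404 upstream ones, giving shares of 22.3%, 26.5% and 30.5% (26.4% ± 4.12, SD, n = 3). All 3 replicates lay below 50%, and the exact two-sided sign-flip permutation p was 0.25, the smallest that 3 replicates allow. The amount of sequence that the rule accepts was nearly equal on each side, 5.89 Mb downstream and 5.85 Mb upstream, so the density was 119 downstream and 270 upstream summits per Mb.

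The shortfall was not even along the promoter. Within 50 bp of the TSS the sides were close to balanced, with 230 downstream and 258 upstream summits (47.1% downstream, interval 42.7 to 51.6). In the replicates the share there was 41.8%, 46.5% and 46.6% (45.0% ± 2.76, SD, n = 3). Beyond 100 bp it was 23.5% in the conservative list and 18.7%, 19.2% and 22.4% in the replicates (20.1% ± 2.01, SD, n = 3), so that each replicate was lower there than near the TSS. Downstream density fell from 358 summits per Mb at 1 to 50 bp to 229 at 51 to 100 bp and 100.3 over the next 100 bp, reached 46.6 between 300 and 400 bp and was 81.3 over the last 100 bp. Upstream it was 402, 415 and 405 over the first 3 of these intervals and fell to 106 over the last 100 bp.

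The higher downstream density in the last interval than in the one before it, 90 against 53 members, was present in replicates 2 and 3 (55 against 47 and 74 against 52 summits), while replicate 1 had 45 against 44. The median summit was 90 bp downstream in the conservative list and 147, 96 and 77 bp in the replicates (107 bp ± 36.2, SD, n = 3). For upstream summits it was 157 bp, and 188, 167 and 147 bp in the replicates. The replicates also differed in how many of their downstream summits were within 100 bp of the TSS, 36.1%, 52.1% and 57.9%. At the edge of the rule, the members nearest inside the limit were Ctr1B (499 bp, signal 181), Vdup1 (497 bp, 81.7) and Ets98B (495 bp, 85.1), and the summits nearest outside it were those of CG46339 (501 bp, 118), SREBP (502 bp, 242) and Hers (502 bp, 56.6).

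**Figure D2:**
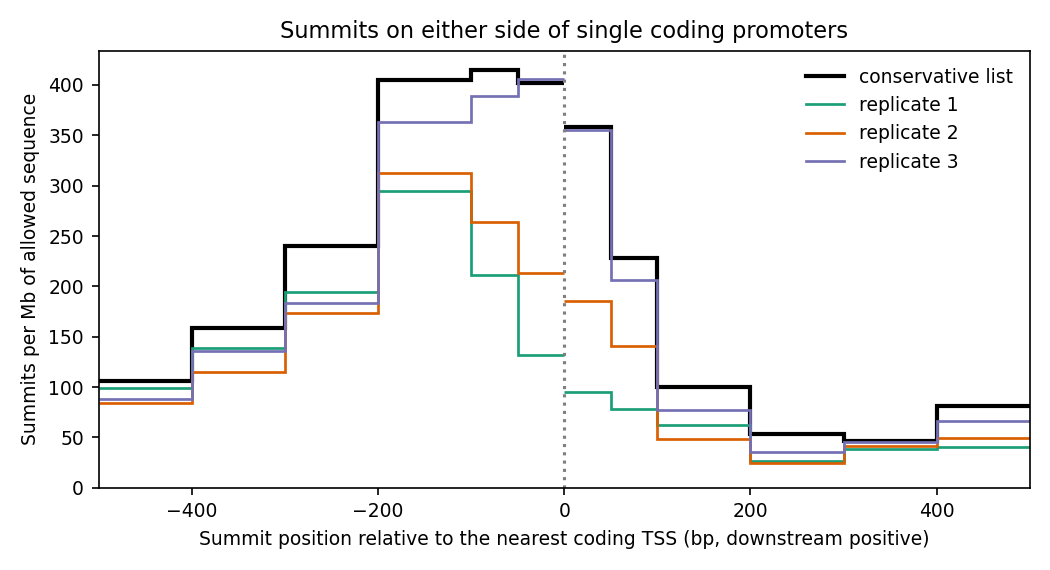
Summits per Mb of sequence that the rule accepts (vertical axis) by position relative to the nearest coding TSS (horizontal axis, bp, downstream positive), in the conservative list (black) and in each replicate's thresholded list. In all 4 lists the density falls over the first 300 bp downstream and is higher upstream than downstream in every interval, and within 50 bp of the TSS replicate 1 has the lowest density on both sides and replicate 3 the highest of the replicates.

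Members were found less often in the replicates' own lists than upstream peaks. Overlap by at least 1 bp in all 3 thresholded replicate lists was seen for 221 members (31.6%, interval 28.3 to 35.2), beside 43.8% of all conservative peaks and 48.5% of upstream peaks. A further 158 members were overlapped in 2 replicates and 189 in 1. There were 131 members (18.7%) with no overlap in any replicate, beside 16.4% of all conservative peaks, and this share was 11.5% upstream. By replicate, 40.5%, 53.9% and 72.7% of members were overlapped (55.7% ± 16.2, SD, n = 3), against 59.6%, 68.2% and 79.3% upstream. Members minus upstream peaks gave −19.1, −14.3 and −6.60 percentage points, the same direction in 3 of 3 replicates (exact two-sided sign-flip p = 0.25). Series lists were derived from the same replicates, so this overlap is not independent evidence for a peak. In the ranked replicate lists, before the threshold on the irreproducible discovery rate (IDR), 87.6%, 98.1% and 99.9% of members were overlapped.

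Support rose with distance from the TSS in replicate 1, from 28.3% of members at 1 to 50 bp to 53.3% over the last 100 bp of the range. In replicate 2 it went from 50% to 62.2%, and in replicate 3 it stayed between 71.1% and 74.4% in every interval. Upstream peaks within 50 bp of the TSS were much like the members there, at 32.6%, 50.4% and 76.0%. The most frequent incomplete pattern among members was overlap in replicate 3 alone, with 139 members, followed by replicates 2 and 3 with 113, whereas 10 members were overlapped in replicates 1 and 2 but not in replicate 3. Where a replicate peak overlapped a member, its summit was a median of 20, 16 and 16 bp away. By the same rule it fell downstream for 83.0%, 84.6% and 83.3% of overlapped members, and upstream for 15.5%, 14.6% and 15.4%. In all, 164 members had a downstream summit at the same gene in each replicate.

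**Figure D3:**
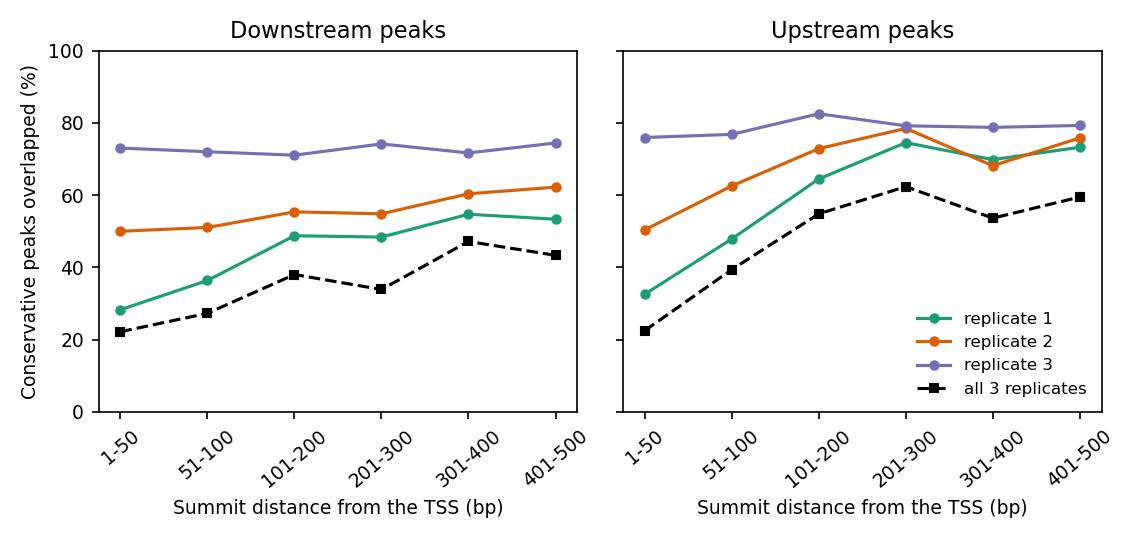
Share of conservative peaks overlapped by a thresholded replicate peak (vertical axis, %) by summit distance from the TSS (horizontal axis, bp), for downstream peaks (left) and upstream peaks (right); lines are the replicates and, dashed, all 3 at once. For downstream peaks replicate 3 is level between 71.1% and 74.4%, while replicate 1 starts at 28.3% next to the TSS.

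Members were weaker than upstream peaks. In the replicates' own lists the median signal was 50.3, 55.5 and 57.5 downstream and 67.2, 71.1 and 68.7 upstream. The difference was −16.9, −15.6 and −11.2 (−14.6 ± 2.97, SD, n = 3), lower downstream in 3 of 3 replicates, with an exact two-sided sign-flip p of 0.25. In the conservative list the medians were 110 for members, 152 upstream and 137 over all peaks. Only 3 members were among the 100 strongest peaks and 49 (7.01%) among the 1000 strongest, compared with 34 and 231 (14.6%) upstream. With the list split into 4 equal classes by signal, 37.1% of members and 20.1% of upstream peaks were in the weakest class. Within a class, overlap in all 3 replicates was close for the 2 sides, at 94.4% and 96.6% in the strongest and 9.27% and 12.3% in the weakest. Signal and distance were nearly unrelated among members (Spearman's rho 0.09 across 699 peaks, a description). Across members overlapped in both replicates of a pair, rho of the signals was 0.75 for replicates 1 and 2, 0.59 for 1 and 3, and 0.77 for 2 and 3. The same values upstream were 0.85, 0.77 and 0.82. These peaks come from the same libraries and are not independent replicates.

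Some weak members sat beside other peaks. Of 699 members, 117 overlapped another conservative peak, and of the 40 members with a signal under 20, 39 did. A signal under 20 was found for 5.72% of members and for 38 upstream summits (2.41%). How often upstream or all conservative peaks overlap another is not given here, so such overlap is not shown to be particular to members. Without overlapping peaks the downstream share was 30.2%. Most members (574) were exactly 360 bp wide (82.1%, against 68.8% of all conservative peaks). In 445 members (63.7%) the peak also covered the TSS, so "downstream" describes the summit and not the whole peak. In the replicates' own lists this share was 45.9%, 59.9% and 65.0% (56.9% ± 9.89, SD, n = 3).

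Most downstream summits within 500 bp were in 5′ UTR exons and very few in coding sequence. With the limit at 1000 bp the 5′ UTR share was 47.7%. At 500 bp the 5′ UTR held 520 members (74.4%), introns 157 (22.5%), coding exons 20 (2.86%, interval 1.86 to 4.38) and 3′ UTR exons 2, where a base in several classes was counted once, in the order 5′ UTR, coding, 3′ UTR, intron. Coding exons took up 38.3% of all bases that the rule accepts, and 5′ UTR exons 37.7%. By replicate, 1.64%, 1.51% and 3.24% of downstream summits were in coding exons and 64.9%, 72.5% and 76.5% in 5′ UTR exons. The genes with a member had little coding sequence close to the TSS to begin with. Over the accepted bases downstream of the members' own 673 TSSs, coding exons made up 9.50%, 5′ UTR exons 60.1% and introns 30.04%. Beyond 100 bp, 4.91% of members and 11.5% of those bases were coding, while 44.8% of members and 37.3% of the bases were intronic.

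Intronic members were the farther and the better supported ones. Their median distance was 338 bp, against 58 bp for those in the 5′ UTR. Of 157 intronic members 73 (46.5%) were overlapped in all 3 replicates, against 146 of 520 (28.1%) in the 5′ UTR, and their median signal was 133 against 106. Class and distance went together: 146 intronic members lay beyond 100 bp, and 358 of those in the 5′ UTR within it. Over all members, overlap in all 3 replicates was 40.2% beyond 100 bp and 24.1% within it. The 2 classes were not compared at like distance. Of the 20 members in coding exons, 2 were overlapped in all 3 replicates. Relative to the transcripts that start at the TSS, 505 members had the summit within exon 1 of every such transcript, 26 within exon 1 of some, and 168 beyond it.

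**Figure D4:**
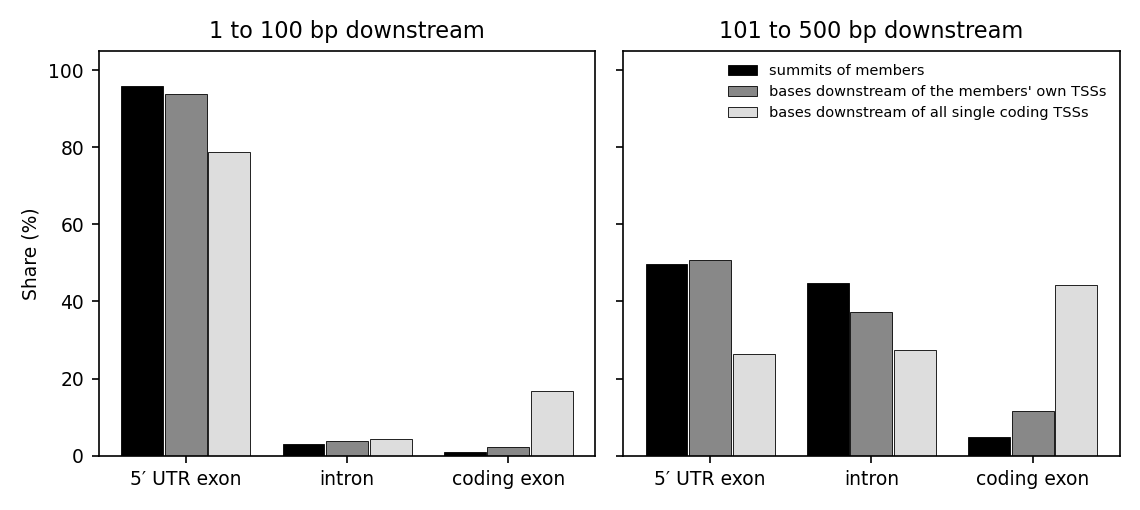
Share (vertical axis, %) of member summits (black), of accepted bases downstream of the members' own TSSs (grey) and of accepted bases downstream of all single coding TSSs (light) in 5′ UTR exons, introns and coding exons, within 100 bp of the TSS (left) and beyond 100 bp (right). Beyond 100 bp coding exons hold 4.91% of members, 11.5% of their own promoters' bases and 44.2% of all accepted bases.

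The 699 members belonged to 617 genes, 4.42% of 13945 protein-coding genes, and to 673 TSSs. There were 73 genes with more than 1 member and at most 3. Eip75B, an ecdysone-induced nuclear receptor gene with several alternative promoters, had 3. The strongest was 59 bp downstream of its TSS with replicate signals of 152, 129 and 92.8, the next was 140 bp downstream of another TSS with 79.6, 117 and 143, and the weakest, at 37 bp, was overlapped in replicate 3 only. Genes with a member had more promoters than most: 422 of them (68.4%) had at least 2 annotated TSSs, against 58.4% of genes with an upstream summit and 26.5% of all coding genes. Just 388 members were at the gene's own 5′-most TSS, and 81 were at the same time within 500 bp upstream of another TSS of that gene. Of the 617 genes, 226 also had an upstream summit. Median gene length was 9.79 kb for genes with a member, 7.38 kb for those with an upstream summit and 2.17 kb for all coding genes. Longer genes with more TSSs offer more sequence to the rule, and the part of this in the counts was not tested.

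Members were densest on the X chromosome, which held 168 of them (24.0%). This was 166 per Mb of accepted downstream sequence, against 98.4 to 125 on the arms of chromosomes 2 and 3. Replicate by replicate, X had 78.0, 88.8 and 136 downstream summits per Mb, and the highest value among the other arms was 61.0, 74.2 and 117, so X led in each. Upstream summits were also densest on X, at 314 per Mb against 239 to 274. No member lay on chromosome 4, which has 0.0488 Mb of accepted sequence. The sex of the animals was not recorded in the labels.

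Among the gene lists, the share of genes with a member was above that of all coding genes for the chromatin, RNA-binding, Wnt, growth signalling, Notch, EGF receptor, ecdysone, small GTPase and translation factor lists, and for the 5 cell type marker lists with a member, while the mitochondrial ribosomal, proteasome and heat shock lists had none. In lists this short 1 gene is enough to lie above: it is 7.14% of the 14 translation factors and 12.5% of 8 markers. High shares were not limited to downstream peaks: an upstream summit was found at 22.2% of the chromatin, 63.2% of the RNA-binding and 33.3% of the Wnt genes, beside 9.42% of all coding genes. The counts below stand beside the 4.42% of all coding genes, and the replicates' own lists gave 2.03%, 2.66% and 4.07% for all genes. The lists were chosen with earlier results of these data known, so a high share is a description and no test of enrichment. Of 18 chromatin and Polycomb or trithorax factors, 5 had a member (27.8%), namely ph-p, psq, Trl, Psc and Su(z)2. All 5 were overlapped in all 3 replicates, which held for 203 of the 617 genes with a member. Trl encodes GAGA factor, and psq another protein that binds GAGA repeats. Psc and Su(z)2 are neighbouring paralogues that, like ph-p, encode Polycomb group proteins. Trl had replicate signals of 262, 168 and 209 at 136 bp and Psc 127, 149 and 193 at 145 bp. Su(z)2, with the summit 68 bp from its TSS, was weaker at 56.1, 62.7 and 85.3. With the replicates' own lists, 22.2%, 22.2% and 27.8% of the list had a downstream summit. With 1 TSS per gene in place of all annotated ones, the list had 3 genes with a member.

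Of 19 RNA-binding and splicing regulators 6 had a member (31.6%; 21.1%, 36.8% and 26.3% in the replicates). The strongest were shep (315 bp, in an intron, replicate signals of 121, 102 and 92.7), Syp (456 bp, overlapped in replicates 2 and 3 with 78.5 and 123) and Rbfox1 (491 bp, 55.0, 51.1 and 48.0). Imp, which with Syp sets neuroblast timing, pum, a translational repressor, and bru2 were the others. The Wnt list had members at 5 of 15 genes (33.3%), of which nkd, a Wnt antagonist, was overlapped in all 3 replicates with 36.7, 40.3 and 25.4. The kinase sgg, shared with the growth list, was overlapped in replicates 1 and 3 (57.3 and 71.5), the receptor gene arr in replicates 2 and 3 (45.1 and 73.1), and fz2, for a Frizzled receptor, in replicate 3 alone (54.8). The ligand wg itself had a weak member, 11 bp downstream, in no thresholded replicate list.

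In the growth signalling list 4 of 16 genes had a member. Pdk1, a kinase that activates Akt, had 37.6, 64.8 and 106, while Thor, the 4E-BP translation inhibitor (60.4 and 79.0), was overlapped in replicates 2 and 3 only. The insulin receptor gene InR was overlapped in the same 2 replicates. The EGF receptor list (3 of 16: sty, aop and kek1, all with inhibitory roles in that pathway) and the Notch list (3 of 14: numb, Ser and mib1) had no member overlapped in all 3 replicates. The Notch share ran from 0% in replicate 1 to 35.7% in replicate 3. Of 17 ecdysone response regulators 2 had a member, Eip75B and crol, although 13 of the 17 had an upstream summit. Of 19 small GTPase and cytoskeleton genes 2 had one, led by sqh, the myosin regulatory light chain gene (109 bp, 121, 145 and 132).

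Housekeeping lists varied. Cytosolic ribosomal protein genes had members at 4 of 93 (4.30%), close to the share of all genes, but in the replicates' own lists 3.23%, 5.38% and 9.68% had a downstream summit, above all genes in each. The strongest member was at RpS10b, 11 bp from the TSS, with 85.3, 78.3 and 132. The others, RpL12, RpS9 and RpS3, were overlapped in at most 2 replicates. There was no member at 73 mitochondrial ribosomal protein genes, 48 proteasome genes or 11 heat shock genes, of which 15, 23 and 7 have a TSS outside head-to-head pairs and could have one. Over all coding genes, 617 of the 9547 with such a TSS had a member, so absence from lists this short does not set them apart. Of these heat shock genes 5 had an upstream summit. The translation factor list had 1 of 14 (7.14%), at eEF2, and 0%, 0% and 14.3% in the replicates. Of 64 marker genes of 8 cell types, 6 had a member, at 5 of the cell types: para (neuron), up (muscle), Lpin (fat body), grh (epidermis), kni and emp (trachea). Only grh, a regulator of epidermal barrier genes, was overlapped in all 3 replicates (97.2, 66.0 and 56.8). A peak at a marker shows binding and not that the gene is expressed.

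**Figure D5:**
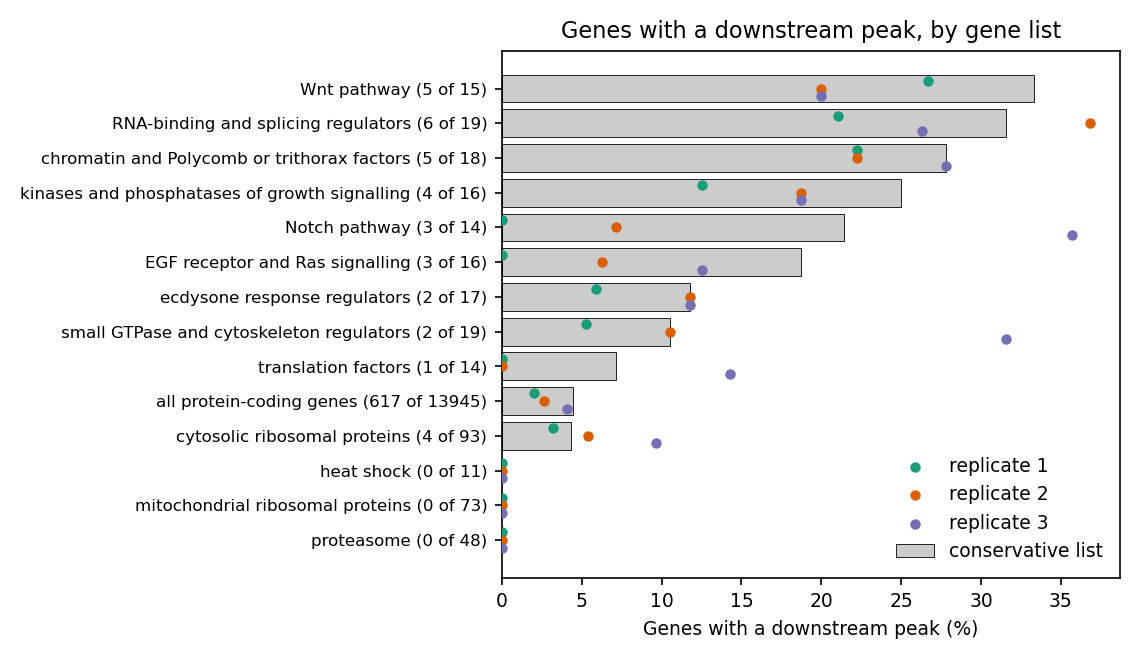
Share of each gene list with a downstream peak (horizontal axis, %) in the conservative list (bars, counts beside the names) and in each replicate's thresholded list (points). The Wnt, RNA-binding, chromatin, growth signalling, ecdysone, small GTPase and cytosolic ribosomal lists lie above all protein-coding genes in each replicate. In replicate 1 the ecdysone and small GTPase shares, 5.88% and 5.26%, are those of a single gene. Heat shock, mitochondrial ribosomal and proteasome genes are at 0%.

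Of the knirps family itself, kni was the gene with a member. Its summit was 44 bp downstream of the TSS at chr3L:20695154-20695513 with a signal of 73.3, rank 8056, and it passed the threshold in no replicate. In the ranked replicate lists the signals there were 19.7, 27.6 and 34.8. The eg gene, which encodes Eagle, had its stronger peak on the other side, 302 bp upstream of the TSS, with 194, 196 and 173 in the replicates. A weaker eg peak (signal 68.4, rank 8251) had its summit at −2542 bp and was in no thresholded replicate list. At knrl the nearest summit was at −1301 bp, upstream of the TSS.

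The motif searches covered 15 words on either strand within 50 bp of each summit. They were the knirps family half-site TAGAGCA, the nuclear receptor half-site AGGTCA, the word TATTTAT, the site GAGAGAG of GAGA factor, the DNA replication-related element TATCGATA, the core promoter word GGTCACAC, the initiator TCAGTT, the downstream promoter element AGACGTG, the Zelda site CAGGTAG, the E-boxes CACGTG and CAGCTG, the repeat CACACACA, the AP-1 site TGACTCA, the GATA factor site AGATAAG and the homeodomain core TAATTA. The half-sites were rare at members. TAGAGCA was found at 2 members (0.286%) and 1.14% of upstream summits, with 0.817% of windows over all accepted downstream bases. The order was the same in each replicate's list, at 0.656%, 0.252% and 0.324% downstream and 1.13%, 1.27% and 0.783% upstream. AGGTCA was found at 5 members (0.715%), against 2.72% of accepted windows.

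Of the 15 motifs, 6 were less frequent at downstream than at upstream summits in all 3 replicates and 2 were more frequent. TATTTAT was in 4.86% of members and 10.1% of upstream summits, and the replicate differences were −7.60, −5.55 and −4.16 percentage points (−5.77 ± 1.73, SD, n = 3). Windows over accepted sequence differed in the same way, 4.61% downstream and 8.90% upstream. For TAATTA the shares were 3.43% and 6.40%, with differences of −3.08, −3.36 and −2.53, and accepted windows held it at 4.26% and 7.63%. The initiator word TCAGTT was in 14.0% of members and 8.62% of upstream summits, higher downstream by 1.85, 4.95 and 6.06 percentage points in the replicates (4.29 ± 2.18, SD, n = 3). The repeat CACACACA was in 6.01% and 3.04%, higher by 2.33, 4.35 and 1.10. In the conservative list this difference lay beyond 100 bp, with 7.67% of members and 2.26% of upstream summits. Within 100 bp the shares were 4.56% and 4.64%. With exact two-sided sign-flip tests over 3 replicates, the smallest p after Benjamini-Hochberg adjustment over the 15 motifs was 0.469, so no motif could pass a threshold. GAGAGAG was in 4.29% of members, above the 1.19% of accepted downstream windows, and 7.29% upstream. In replicate 1 it was more frequent downstream (4.59% against 3.10%), and in replicates 2 and 3 less. Coding exons made up 38.3% of all accepted downstream bases but 9.50% of those at the members' own TSSs. Motif shares over the members' own promoters were not computed, which limits each comparison of members with accepted windows, AGGTCA included.

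Near and far members differed in sequence. At members within 100 bp of the TSS, TCAGTT was in 21.2% of windows, compared with 12.8% of accepted windows at that distance and 14.3% of upstream summits within 100 bp. Beyond 100 bp it was in 5.83% of members, 5.84% of upstream summits and 6.01% of accepted windows. Of all members 53.4% lay within 100 bp of the TSS, against 32.8% of upstream summits. Within that range, 230 of 373 members and 258 of 517 upstream summits were at most 50 bp away. The part of these positions in the TCAGTT shares was not tested. GGTCACAC was in 7 members, all of them within 100 bp (1.88%, accepted windows 1.49%). Mean GC content at near members was 48.3% ± 7.92 (SD over 373 windows), against 43.5% over accepted bases at that distance, and in the replicates' lists 44.0%, 46.9% and 48.4%. Far members had 42.2% ± 10.7 (SD over 326 windows), against 45.6% over accepted bases, and 39.2%, 40.5% and 41.3% in the replicates. Thus near members were richer in GC than the accepted sequence at their distance and far members poorer, in each replicate's list. Beyond 100 bp, coding exons made up 44.2% of all accepted bases but 11.5% of those at the members' own TSSs. GC content over the members' own promoters was not computed. Upstream summits differed in the same way, with 47.4% within 100 bp against 42.9% over accepted bases, and 36.8% against 38.7% beyond it.

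The initiator was then looked for at the TSS itself, in the gene's own direction. This search and the other searches at the TSS were chosen after the values above had been seen. TCAGT with its A within 5 bp of the TSS was present at 107 of 373 TSSs of near members (28.7%, interval 24.3 to 33.5), 39 of 315 of far members (12.4%, interval 9.19 to 16.5), 21.9% of TSSs with an upstream summit within 100 bp, and 13.4% of 13071 coding TSSs outside head-to-head pairs. In the replicates' own lists the shares were 27.3%, 26.6% and 29.7% at TSSs of near downstream summits and 15.1%, 15.9% and 16.4% at those of far ones. The 2 ranges did not overlap. For all members together the share was 21.4%, close to the 22.3% of TSSs with an upstream summit. The pause button (in order G or T, then CG, then A or G, then A or T, then CG, starting within 60 bp downstream), a sequence known from promoters with paused polymerase, was at 14.5% of near, 7.94% of far and 6.40% of all such TSSs, and at 12.8% of TSSs with an upstream summit within 100 bp. By replicate it was at 10.9%, 14.5% and 14.3% for near and 9.38%, 10.6% and 9.77% for far summits. All member TSSs together had the pause button at 11.3%, and TSSs with an upstream summit at 12.1%. GAGAG or CTCTC between 150 bp upstream and 50 bp downstream was at 55.2% of near, 41.3% of far and 29.3% of all such TSSs. For all members together it was 48.6%, close to the 49.2% of TSSs with an upstream summit (46.4% for those within 100 bp). In replicate 1 this was lower for near than for far summits (42.7% against 47.9%), unlike in replicates 2 and 3. The TATA box word TATAAA 40 to 20 bp upstream was at 3.86% of member TSSs, 4.29% of TSSs with an upstream summit and 7.89% of all. A match to a motif is a description of the sequence and does not show a binding site.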

How the data were processed

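ChIP-seq peak lists of 3 replicates and of the series were analysed on dm6, the build in the labels. The deposited signal value is the strength the authors gave to a peak. Their deposited IDR score has 830 as its lowest value in the conservative list, and the −log10 q-values they deposited enter no result. A summit is the deposited start plus the authors' offset. No source used here names the aligner or peak caller. Without read counts the depth is unknown. The ranked series lists hold 32 more columns, left unused since no label assigns them to a replicate. The control experiment in the labels was not analysed here.

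TSSs of all transcripts of protein-coding genes came from Ensembl release 115 (BDGP6 version 6.54). Replicate values come from each replicate's thresholded list, and differences were tested by an exact sign-flip permutation over replicates (smallest two-sided p 0.25). The labels call the replicates biological. Wilson intervals are at 95% and cover counting error only. Genes named are those of the 20 strongest members found in all 3 replicates, 3 summits on each side of the limit, eg, kni, knrl, and up to 3 per gene list. Further list genes were named after their values were seen. Members and lists were chosen with earlier results of these data known. Of the list entries, 4 were replaced through older symbols and 3 had no match. Placement and counting were tested on simulated data. Alternatives changed the TSS set, distance limit, peak list, signal threshold, pairs, overlap, motif window and replicates. Python 3.11.15, NumPy 2.4.6, SciPy 1.17.1 and matplotlib 3.10.9 were used.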

Additional observations from a re-analysis of the deposited data

How the results depend on the processing

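In every alternative run, downstream summits stayed under 50% of the single-promoter summits and their median signal stayed below that of upstream summits. The differences of the 5 motifs recomputed one by one also kept their sign. Of 165 recomputed values, most of which are counts or shares and cannot change sign, 61 moved by more than the limit set for them. With a limit of 1000 bp there were 1201 members, the downstream share was 37.7%, the median distance 379 bp, the share in all 3 replicates 35.9%, the share spanning the TSS 37.1% and the signal difference −10.7. With 200 bp the share in all 3 replicates was 27.5% and 90.1% of members spanned the TSS. In the stronger 50% of the list by signal there were 252 members, the downstream share was 22.2%, 70.6% were found in all 3 replicates, 50% spanned the TSS and the signal difference was −6.03. The other 3 thresholded series lists gave shares in all 3 replicates of 47.8%, 26.1% and 41.0%, signal differences of −33.7, −35.7 and −42.6 on their own scales, and 10, 10 and 11 motifs less frequent at members (in 1 list each, not in 3 replicates). The shortest of them held 452 members, with a downstream share of 25.1% and 53.8% spanning the TSS. The conservative list's own signal gave −42.0. Requiring overlap of at least 50% of the member peak gave 25.5% in all 3 replicates, and a replicate summit within 100 bp gave 26.6%. With conservative peaks limited to those found in both other replicates, leaving out each replicate gave 231 to 334 members, downstream shares of 21.9% to 25.6%, median distances of 102.5 to 136 bp and 45.9% to 56.6% spanning the TSS. The share of members found in both remaining replicates was 33.0% to 47.8%, highest without replicate 1. Over the alternatives, coding exons held 0.866% to 3.99% of members and 5′ UTR exons 47.7% (1000 bp) to 88.5% (200 bp). The chromatin list had members at 5 of its genes in most alternatives, and at 3 with 1 TSS per gene. The alternatives for the coding exon, 5′ UTR and chromatin values were chosen after seeing the data, as was leaving out peaks that overlap another. The cause of these changes was not tested. No paired analysis was possible between groups of samples, because there was 1 group. Downstream and upstream peaks were compared within each replicate. Unknown depth limits every statement on a missing peak.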
